A study of Homo sapiens with 8 samples.

Results

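The vesicle coat genes are described here in ribosome-protected fragments (RPFs) that were sequenced from all ribosomes and from ribosomes recovered with a chaperone. The 10 genes were chosen by function, as coat subunits present in both deposited count tables, out of 60664 gene identifiers. They are COPA, COPB2, COPE, COPB1, COPG1, ARCN1 and COPZ1 of the COPI coat, SEC31A and SEC23A of the COPII coat, and CLTC, the clathrin heavy chain. The libraries came from U-2 OS cells, an osteosarcoma line, edited with Cas9 so that HaloTag was fused to CCT4, a subunit of the ring chaperonin TRiC, or to PFD4, a subunit of the chaperone prefoldin (PFD). The CCT4 line was a monoclonal line, and the PFD4 line was made by the same strategy. Every group received cycloheximide at 100 µg/ml for 1 min and the crosslinker DSP at 2 mM for 30 min. There were 4 groups of 2 replicates: the TRiC input and the PFD input, which are total ribosomes of each line, and the TRiC pulldown and the PFD pulldown, which are the ribosomes recovered through the tagged chaperone of that line. Pulldown against input, within each line, asks whether nascent chains of a gene were held by the chaperone more or less often than those of other genes. Because values are relative to all counts of a library, a value below input means a smaller share of the recovered footprints than of all footprints and does not mean that no chaperone was bound.

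Coats are protein shells that bend a membrane into a bud and select its cargo. COPI is recruited to Golgi membranes by the small GTPase ARF1 as a preassembled heptamer and carries proteins back to the endoplasmic reticulum. COPII is recruited by SAR1 and carries new proteins out of the endoplasmic reticulum. SEC23 and SEC24 form its inner layer, and SEC13 and SEC31 form the outer cage. Clathrin triskelia of heavy and light chains form cages at the plasma membrane, the trans-Golgi network and endosomes through adaptor complexes. Cage subunits of all 3 coats pair a β-propeller with an α-solenoid. COPA (α-COP), COPB2 (β′-COP) and SEC31A have propellers of WD40 repeats, whereas the N-terminal propeller of CLTC is not made of WD repeats. WD40 propellers are a textbook class of TRiC substrates, which makes the coats a mixed group for this assay.

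The letters that give WD repeats their name are a tryptophan and an aspartate at the end of a repeat. The codon pair for these residues, TGGGAC or TGGGAT, was searched in frame on the coding strand in the GENCODE 44 coding sequences on hg38. It occurred in 26% of 19729 coding sequences, and at least 3 pairs occurred in 2.27%. The first pair of each coat gene that holds one is given 5′ to 3′ as 30 bases of coding strand, with the pair in capitals, to mark which members carry it.
COPA (5 pairs, chr1:160340212-160340241, minus strand): gtcatccagttaTGGGACtatcggatgtgc
COPB2 (4 pairs, chr3:139378152-139378181, minus strand): cttattaagctcTGGGACtgggataaaaaa
SEC31A (3 pairs, chr4:82875760-82875789, minus strand): gaaatctacataTGGGATctaaataatttt
COPG1 (1 pair, chr3:129274895-129274924, plus strand): ttcgaagcagccTGGGATgaggtaggggat

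The 3 members with WD40 propellers were the ones with at least 3 pairs. The COPA pair shown begins at codon 36, the COPB2 pair at codon 126 and the SEC31A pair at codon 150. Directly after its marked pair, the COPB2 window holds another of the COPB2 pairs in lower case, so these are not separate sites. The only pair in COPG1, a subunit without a propeller, lies at codon 776 of 874. The remaining 6 members held none, and neither did SEC13, which is itself a WD40 propeller protein, so the pair does not mark every propeller. A match describes the codons in that window and is not a measured binding site.

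The 8 libraries held 9523128 to 32637658 counts, and the coat genes took 0.475% to 0.576% of them. Replicates correlated at 0.995 for the TRiC input, 0.992 for the TRiC pulldown, 0.974 for the PFD input and 0.927 for the PFD pulldown (Pearson's r of log2 CPM over 8085 genes). PFD pulldown replicate 1 stood apart, at 0.926 to 0.927 with the other PFD libraries. The common dispersion was 0.0153 in the TRiC libraries and 0.331 in the PFD libraries, so smaller differences could be called in TRiC than in PFD. The bone-lineage markers VIM, COL1A1 and SPARC had at least 13791 counts in each library, RUNX2 had 613 to 1920 and COL1A2 had 1 to 66. ALPL had 62 to 95 counts in the TRiC libraries and 358 to 811 in the PFD libraries. The blood markers PTPRC and CD3E had at most 5. Of the epithelial markers, CDH1 and KRT19 had at most 21 counts and EPCAM had 1 to 277, the 1 in PFD pulldown replicate 1.

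Of the 10 members, those with values below input in both TRiC pulldowns were all COPI subunits. COPA and COPG1 fell, to 84.5% and 84.8% of input, and COPB2, COPE, ARCN1 and COPZ1 lay below input in both pulldowns without passing the adjusted test. With replicate number added to the fit as a block, COPB2, COPE, ARCN1 and COPZ1 passed (edgeR adjusted p of 0.0172, 0.00873, 0.00922 and 0.0166). That fit called 2652 of all 17934 genes lower and 2037 higher. COPB1, SEC31A, SEC23A and CLTC overlapped between pulldown and input. No member was called higher. Hence 2 of the 10 members were called lower, beside 10.6% of all 17934 genes tested (edgeR quasi-likelihood test, Benjamini-Hochberg adjusted p under 0.05), and 0 were called higher beside 8.64%. Over the whole table these were 1550 genes higher and 1894 lower, a split that library totals in place of TMM turned to 1801 and 1265. In 6 of the 10 members, all of COPI, both pulldowns were below both inputs, beside 31.2% of all genes, and in 0 of 10 were both above, beside 29.3%. This was not particular to COPI once partners outside the 10 were included. SEC13, SEC23B, SEC24C, CLTA and CLTB also had both pulldowns below both inputs (−0.36, −0.20, −0.20, −0.49 and −0.61). SEC31B and SEC24B had both above (0.83 and 0.12). The median log2 fold change was −0.19 for the 10 members and −0.23 for the 7 COPI subunits, against −0.05 for the 11778 genes with a mean of at least 100 counts.

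COPA encodes α-COP (ENSG00000122218, hg38 chr1:160288594-160343566, minus strand), the largest COPI subunit and part of its outer layer. Its level was 646 and 685 CPM in the TRiC inputs and 571 and 554 CPM in the pulldowns (CPM, TMM-scaled, as for all CPM values). Both pulldowns were below both inputs, by more than the gap between replicates. The difference was −0.24 on the log2 scale (SE 0.07, 95% interval −0.38 to −0.10, edgeR adjusted p = 0.0151). COPG1 encodes γ1-COP (ENSG00000181789, chr3:129249606-129277773, plus strand), which belongs to the adaptor-like inner layer and contacts ARF1. It had 389 and 387 CPM in the inputs and 335 and 323 CPM in the pulldowns, again without overlap. Its log2 fold change was −0.24 (SE 0.07, interval −0.38 to −0.09, edgeR adjusted p = 0.0208). Both calls were lost with library totals, cyclic loess, a filter of at least 100 counts, a test against a 1.5-fold change, the fit of all 8 libraries, or without either TRiC input library. The log2 fold changes stayed below 0 in each of these, at −0.09 for COPA and −0.11 for COPG1 with cyclic loess and at −0.21 or lower without an input library.

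The other outer-layer subunits gave smaller or less certain values. COPB2 encodes β′-COP (ENSG00000184432, chr3:139353946-139389736, minus strand), which like COPA binds the dilysine signals of cargo. It had 396 and 431 CPM in the TRiC inputs and 360 and 377 CPM in the pulldowns, with a log2 fold change of −0.17 (SE 0.07, interval −0.32 to −0.02, edgeR adjusted p = 0.110). The pulldowns were below the inputs without passing the test. Exons of MRPS22, on the opposite strand, cover 34.1% of the COPB2 exon bases, and the strand setting of the counting is not given in the sources used here. Other annotated genes cover 9.18% of the exon bases of COPE, 7.98% of COPB1, 5.18% of SEC31A and 3.74% of SEC23A. COPE encodes ε-COP (ENSG00000105669, chr19:18899514-18919387, minus strand), an α-solenoid protein that binds α-COP. It had 88.1 and 90.9 CPM in the inputs and 80.5 and 66.6 CPM in the pulldowns. Its log2 fold change of −0.28 was the lowest of the 10 members (SE 0.10, interval −0.49 to −0.07, edgeR adjusted p = 0.0536).

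The inner-layer subunits gave a range of values. ARCN1 encodes δ-COP (ENSG00000095139, chr11:118572390-118603033, plus strand), which pairs with β-COP. It had 142 and 146 CPM in the TRiC inputs and 127 and 118 CPM in the pulldowns, with a log2 fold change of −0.23 (SE 0.08, edgeR adjusted p = 0.0520). COPZ1 encodes ζ1-COP (ENSG00000111481, chr12:54301202-54351846, plus strand), the small partner of γ-COP. It had 119 and 125 CPM in the inputs and 101 and 109 CPM in the pulldowns, with a log2 fold change of −0.22 (SE 0.08, edgeR adjusted p = 0.0767). Both genes were lower in each pulldown than in each input, and neither passed the adjusted test. COPB1 encodes β-COP (ENSG00000129083, chr11:14443440-14500027, minus strand), the large inner subunit next to ARCN1. Its value was the nearest to 0 of the COPI subunits, with 294 and 330 CPM in the inputs and 284 and 331 CPM in the pulldowns. These overlapped, and the log2 fold change was −0.02 (SE 0.08, interval −0.20 to 0.16). That interval overlapped those of the other 6 subunits, and the difference between COPB1 and them was not tested. The other 6 subunits were below 0 under each alternative run for them (13 for COPB2, which is not in the fit without opposite-strand overlaps, and 14 for the rest), whereas COPB1 was above 0 with library totals, cyclic loess and both stricter filters.

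**Figure D1:**
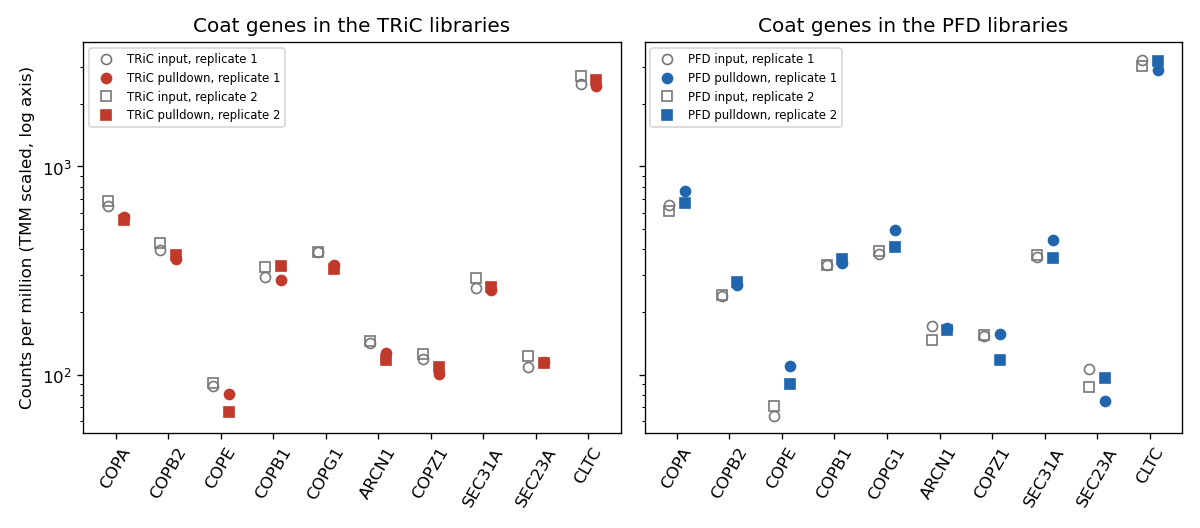
CPM (TMM scaled, log axis) of the 10 coat genes in the TRiC libraries (left) and the PFD libraries (right), with open grey symbols for inputs, filled symbols for pulldowns, circles for replicate 1 and squares for replicate 2. In TRiC the filled symbols of 6 COPI genes lie below their inputs, in PFD those of 5 COPI genes lie above, and CLTC lies far above the other genes throughout at 2425 to 3236 CPM.

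Neither COPII member differed from input beyond the replicates in the TRiC pulldown. SEC31A (ENSG00000138674, chr4:82818509-82901166, minus strand), the rod of the outer cage, had 261 and 291 CPM in the inputs and 255 and 263 CPM in the pulldowns. SEC23A (ENSG00000100934, chr14:39031919-39109646, minus strand), the inner subunit that activates GTP hydrolysis by SAR1, had 110 and 124 CPM in the inputs and 116 and 114 CPM in the pulldowns. Both overlapped, with log2 fold changes of −0.09 (interval −0.25 to 0.07) and −0.02 (interval −0.20 to 0.16). The outer partner of SEC31A did change. SEC13, a propeller protein that also serves in the nuclear pore, fell from 152 and 148 CPM to 127 and 107 CPM, a log2 fold change of −0.36 (SE 0.09, edgeR adjusted p = 0.00939). Without TRiC input replicate 1 or TRiC pulldown replicate 2 that call was lost, at −0.34 and −0.23. It was also lost with the test against a 1.5-fold change and in the fit of all 8 libraries. SEC31B, the paralog of SEC31A and far below it in level, rose from 384 and 323 counts to 711 and 560 counts, a log2 fold change of 0.83 (SE 0.16, edgeR adjusted p = 0.00151). Another annotated gene on the same strand covers 18.5% of the SEC31B exon bases. SEC23B was at −0.20 (edgeR adjusted p = 0.152), and the cargo-binding subunits SEC24A, SEC24B, SEC24C and SEC24D were at −0.02, 0.12, −0.20 and −0.02, none of them called.

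Clathrin gave different values for its heavy and light chains. CLTC (ENSG00000141367, chr17:59619684-59696956, plus strand), whose legs form the triskelion, had 2498 and 2731 CPM in the TRiC inputs and 2425 and 2600 CPM in the pulldowns. These overlapped, with a log2 fold change of −0.06 (SE 0.06, interval −0.19 to 0.08). CLTA, the light chain A that lines the hub of the triskelion, fell from 294 and 291 CPM to 219 and 197 CPM, to 71.2% of input (log2 −0.49, SE 0.08, edgeR adjusted p = 3.26e-04). CLTB, the light chain B, fell from 65.0 and 61.8 CPM to 43.4 and 39.5 CPM, to 65.5% of input (log2 −0.61, SE 0.10, edgeR adjusted p = 4.94e-04). Both light chains were below input without overlap. The light-chain calls and that of SEC31B were lost in 2 of the 14 alternatives, the test against a 1.5-fold change and the fit of all 8 libraries. The difference between heavy and light chains was not tested. CLTCL1, the second heavy-chain gene, was at 0.11 (edgeR adjusted p = 0.430).

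TRiC values of coat genes with and without a propeller overlapped. The 4 members with a propeller had a median log2 fold change of −0.13, with 1 of 4 called lower and none higher. The 6 members without one had a median of −0.23, with 1 of 6 called lower and none higher. Over all genes 10.6% were lower and 8.64% higher. These medians and counts cover the 10 members only. Outside them, the WD40 propeller protein SEC13 was called lower (−0.36). SEC31B, the paralog of SEC31A, was called higher (0.83), and CLTCL1, the second clathrin heavy chain, was not called (0.11). COPA and SEC31A, which hold 5 and 3 of the codon pairs shown above and nearly equal coding lengths of 1224 and 1220 codons, were at −0.24 and −0.09.

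**Figure D2:**
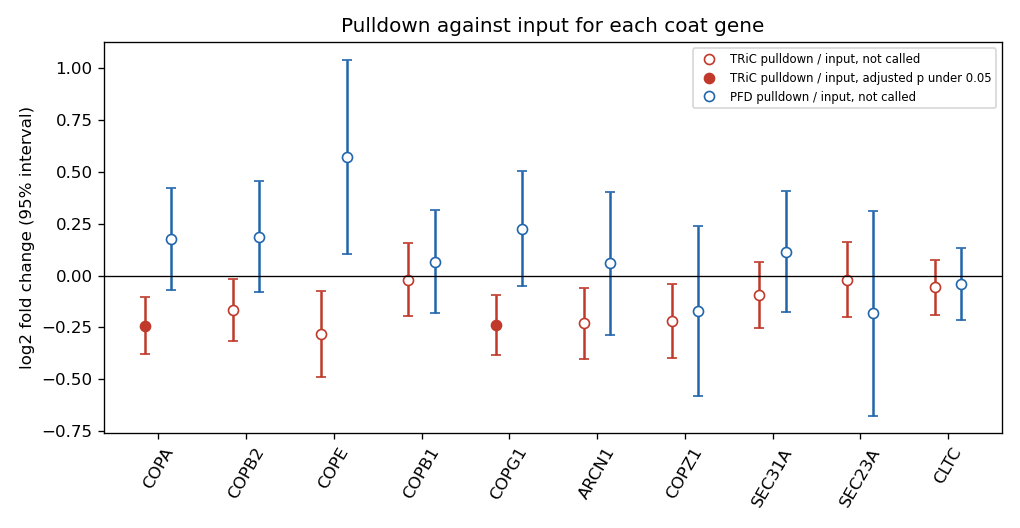
Log2 fold change of pulldown over input for each coat gene (points) with 95% intervals (bars), TRiC in red and PFD in blue, with filled points for adjusted p under 0.05. COPA and COPG1 are the only filled points, both at −0.24 in TRiC, and the PFD intervals are wider, reaching from 0.11 to 1.04 for COPE.

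TRiC values moved with coding length over the whole table, which sets the scale for the coats. The median log2 fold change was −0.21 for coding genes under 300 codons (3703 genes), −0.02 from 300 codons to below 1000 (8701 genes) and 0.18 for 1000 codons or more (2207 genes). The share called lower was 25.0%, 8.82% and 2.08% in these classes, and the share called higher 2.65%, 6.26% and 23.8%. Against this, COPA was low for its length. It was 1 of 46 genes of 1000 codons or more that were called lower, and it lay at percentile 6.89 of its class. SEC31A at percentile 15.2 and CLTC at percentile 18.9 of the same class were also in its lower part. COPZ1, of 177 codons, lay at percentile 49.1 of the short class, so its −0.22 was the value of a middling short gene. In the middle class COPE, COPG1, ARCN1 and COPB2 lay at percentiles 16.1, 21.0, 21.8 and 30.1, and COPB1 and SEC23A at 49.9 and 49.7. CLTA and CLTB lay at percentiles 15.3 and 7.97 of the short class. Over the 10 members log2 fold change and log2 coding length correlated at 0.516 (Pearson) and 0.333 (Spearman), and over the members and 67 related genes at 0.407 and 0.485, across genes that share the same 4 libraries. The part that length plays in the coat values was not tested.

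**Figure D3:**
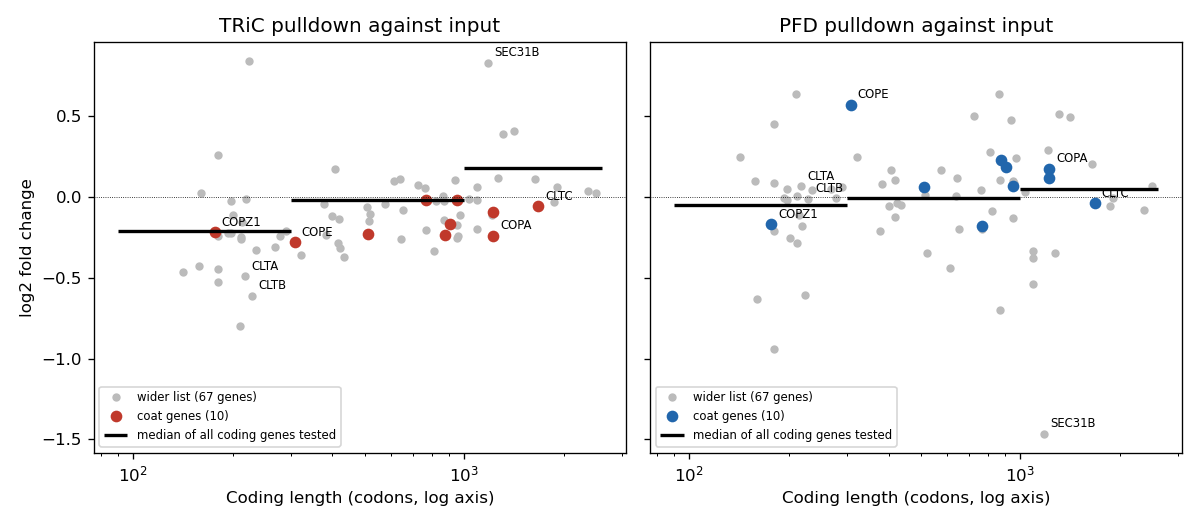
Log2 fold change against coding length (codons, log axis) for the 10 coat genes (coloured) and 67 related genes (grey) in the TRiC (left) and PFD (right) pulldowns, with black bars for the median of all coding genes tested in 3 length classes. In TRiC the bars rise from −0.21 to 0.18 and COPA and CLTC lie below the bar of the longest class, and in PFD the bars run from −0.05 to 0.05.

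In the PFD pulldown none of the coat genes passed the adjusted test. Values leaned above input for COPI, with COPE furthest from 0. For COPE the inputs of the PFD line held 63.8 and 71.0 CPM, whereas its pulldowns held 110 and 90.4 CPM. Both pulldowns were above both inputs, and the log2 fold change was 0.57 (SE 0.20, interval 0.11 to 1.04, unadjusted p = 0.0226, edgeR adjusted p = 0.703). COPG1 had 382 and 393 CPM in the inputs and 494 and 413 CPM in the pulldowns, with a log2 fold change of 0.23 (interval −0.05 to 0.51). COPA, COPB2 and COPB1 also had both pulldowns above both inputs, with log2 fold changes of 0.17, 0.19 and 0.07. Thus 5 of the 10 members did so, beside 18.3% of the 14111 genes tested, and 0 had both pulldowns below, beside 20.4%. By the adjusted edgeR test 0 of 10 were called higher, beside 0.0496% of all genes, and 0 lower, beside 0.191%, and 1 member (COPE) had an unadjusted p under 0.05, as did 978 of the 14111 genes. DESeq2 called COPE higher (0.58, adjusted p = 0.0484), among 252 genes of the whole table.

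The remaining PFD values overlapped between pulldown and input. ARCN1 had 172 and 147 CPM in the inputs and 168 and 163 CPM in the pulldowns, and COPZ1 153 and 156 CPM against 157 and 118 CPM. SEC31A had 366 and 377 CPM in the inputs and 442 and 363 CPM in the pulldowns. SEC23A had 107 and 87.2 CPM against 74.7 and 96.4 CPM. In the last 3 of these genes the PFD pulldown replicates lay further apart than the inputs. CLTC had 3236 and 3046 CPM in the inputs and 2901 and 3209 CPM in the pulldowns, with a log2 fold change of −0.04 (interval −0.22 to 0.13). The median over the 10 members was 0.09, and it was −0.00 over all genes tested. Leaving out PFD pulldown replicate 2, so that replicate 1 stood alone and was assumed to vary like the inputs, gave calls for COPE (0.70), COPA (0.27) and COPG1 (0.35), when 1081 genes of the whole table were called higher. Leaving out PFD pulldown replicate 1 gave none.

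Whether the TRiC and PFD values of a gene differed was tested with an interaction term over all 8 libraries. By edgeR 0 of 10 members were called lower in TRiC than in PFD, beside 0.0159% of 18855 genes tested, and 0 higher, beside 0.0212%. An unadjusted p under 0.05 was found for 4 COPI members, in each of which the TRiC value was lower than the PFD value, and for 2791 of the 18855 genes tested. COPE differed by −0.84 on the log2 scale (SE 0.20, interval −1.29 to −0.38, edgeR adjusted p = 0.175). COPG1 differed by −0.45 (interval −0.72 to −0.18, edgeR adjusted p = 0.196), COPA by −0.40 (interval −0.67 to −0.13, edgeR adjusted p = 0.215) and COPB2 by −0.34 (interval −0.62 to −0.06, edgeR adjusted p = 0.277). DESeq2 called all 4, with adjusted p of 0.0186, 0.0262, 0.0220 and 0.0358, among 521 genes lower and 464 higher over the whole table. CLTC differed by −0.0059, the smallest difference of the 10. Each line has its own inputs, so line and pulldown cannot be told apart from the tagged chaperone in this contrast.

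Levels between coat genes can be compared per coding length, as counts per coding kilobase after scaling each library to its total (RPKM). The lines also differed over all genes. TRiC and PFD libraries correlated at 0.820 to 0.862 over 8085 genes, against 0.968 to 0.995 within TRiC and 0.926 to 0.974 within PFD (Pearson's r of log2 CPM). Clone, tag and library preparation cannot be told apart in level differences between the lines. In total ribosomes CLTC was the highest of the 10 members, at 512 ± 46.5 in the TRiC input and 631 ± 25.5 in the PFD input (mean ± SD, n = 2, for these and the following levels). CLTA was at 439 ± 8.88 and 442 ± 17.4, and CLTB at 90.6 ± 0.733 and 176 ± 5.06. The ratio of CLTC to the sum of both light chains, which bind heavy chains 1 to 1, was 0.965 ± 0.0730 in the TRiC input and 1.02 ± 0.00411 in the PFD input. In the TRiC pulldown it was 1.33 ± 0.163, above both inputs of that line (1.21 and 1.44 against 0.914 and 1.02). In the PFD pulldown it was 0.969 ± 0.149. With 2 libraries against 2 the smallest two-sided p of an exact permutation test is 0.333, and the ratios were given no other test.

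The 7 COPI subunits, present once each in the heptamer, spanned a 2.45-fold range in the TRiC input and a 4.00-fold range in the PFD input. COPZ1 was highest in both, at 226 ± 15.1 and 294 ± 4.20, followed by COPA at 178 ± 12.5 and 174 ± 7.71. In the TRiC input COPB2 was at 150 ± 13.2 and COPG1 at 145 ± 3.45, which did not differ beyond their spread. COPB1 followed at 107 ± 11.8, and COPE at 95.2 ± 4.80 and ARCN1 at 92.3 ± 4.28 did not differ beyond their spread. In the PFD input COPG1 was at 149 ± 3.40, COPB1 at 119 ± 0.308, ARCN1 at 105 ± 11.4, COPB2 at 89.3 ± 0.646 and COPE at 73.7 ± 5.68, with no overlap between the libraries of neighbours in this order. In proportion, COPB2 shifted most between lines among the 7, and the ratio of COPA to COPB2 was 1.19 ± 0.0217 in the TRiC input and 1.95 ± 0.100 in the PFD input. COPB2 is the COPI gene with 34.1% of its exon bases under an opposite-strand gene, against 1.06% for COPA and 0.475% for COPG1. These shares are over all annotated exons, untranslated parts included. Whether the overlap plays a part in the shift of COPB2 was not tested.

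**Figure D4:**
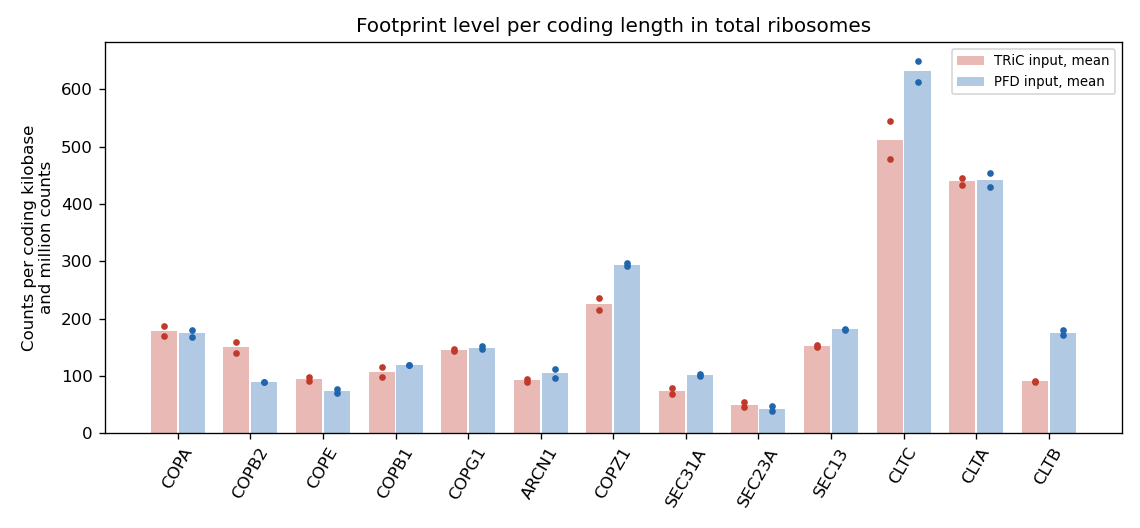
Footprint level (RPKM over the coding length) in total ribosomes of the TRiC line (red) and the PFD line (blue) for the 10 coat genes and SEC13, CLTA and CLTB, with bars for the mean and points for each of 2 replicates. CLTC and CLTA stand highest, COPZ1 leads the COPI subunits, and COPB2 is lower in the PFD line (89.3) than in the TRiC line (150).

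The paralogs of COPI were minor. COPG1 exceeded COPG2 5.40-fold in the TRiC input and 11.1-fold in the PFD input, and COPZ1 exceeded COPZ2 16.9-fold and 47.2-fold. The log2 fold change of COPG2 was −0.03 in the TRiC pulldown (edgeR adjusted p = 0.906). In the PFD pulldown it was −0.70 (edgeR adjusted p = 0.731), with both pulldowns below both inputs. No exact coding window of 30 bases was shared within these pairs, nor between SEC23A and SEC23B, SEC31A and SEC31B, or CLTC and CLTCL1. In COPII, SEC31A was at 74.2 ± 7.92 in the TRiC input and 102 ± 2.38 in the PFD input, and its cage partner SEC13 was at 152 ± 1.51 and 181 ± 1.51. SEC23A, at 50.0 ± 5.71 and 42.7 ± 6.05, was the lowest of the 10 members in both lines. It was 1.38 ± 0.104 times SEC23B in the TRiC input and 0.885 ± 0.0448 times SEC23B in the PFD input, so the order of both paralogs differed between the lines. The 4 SEC24 genes together were 1.79 ± 0.0231 and 2.15 ± 0.0957 times the sum of both SEC23 genes.

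Among 67 further genes of the coat cycles, chosen by function, 21 were called lower and 3 higher in the TRiC pulldown, beside 10.6% lower and 8.64% higher over all genes tested, with a median log2 fold change of −0.11. In the COPI and ARF group 4 of 11 were lower and 0 higher, including ARF5 (−0.52, edgeR adjusted p = 5.10e-04), a GTPase of the ARF family, and COPZ2 (−0.80, edgeR adjusted p = 0.0357), whose call was lost with DESeq2 and without TRiC input replicate 1 or TRiC pulldown replicate 2 (−0.61 and −0.46). In the COPII and SAR1 group 2 of 14 were lower and 1 higher. In the clathrin and adaptor group 9 of 26 were lower and 1 higher. The lower ones included AP2S1 (−0.46, edgeR adjusted p = 6.86e-04), the small subunit of the plasma membrane adaptor AP-2, and the higher one was GAK (0.39, edgeR adjusted p = 0.00282), a kinase that helps to uncoat clathrin vesicles, whose call was lost without TRiC input replicate 2 (0.32). Among the cargo receptors 6 of 16 were lower and 1 higher, TMED7 (0.84, edgeR adjusted p = 0.00130), of the p24 family. Another annotated gene on the same strand covers 20% of the TMED7 exon bases. For ARF5, other genes cover 22.2% on the opposite strand and 16% on the same strand. Of the 24 listed genes and members under 300 codons 12 were lower and 1 higher, of 36 between 300 and 1000 codons 10 were lower and 0 higher, and of 17 with 1000 codons or more 1 was lower, COPA, and 2 were higher, SEC31B and GAK. Over all coding genes of these classes 25.0%, 8.82% and 2.08% were lower and 2.65%, 6.26% and 23.8% higher. With the test against a 1.5-fold change or the fit of all 8 libraries, 0 of the 67 were called lower and 0 higher. Without TRiC input replicate 1 or TRiC input replicate 2, 9 or 10 of the 67 were called lower.

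In the PFD pulldown 0 of the 67 were called in either direction by edgeR, and 3 had an unadjusted p under 0.05, beside 978 of 14111 genes. DESeq2 called 1 higher and 1 lower, the lower one being SEC24C (−0.37, adjusted p = 0.0173). The light chains CLTA and CLTB were at 0.07 and −0.01, and SEC13 was at 0.25. SEC31B had 247 and 67 counts in the inputs of that line against 3 and 186 in its pulldowns, so its −1.47 rested on PFD pulldown replicate 1. The interaction called 0 of the 67 by edgeR, with 18 at an unadjusted p under 0.05, beside 2791 of 18855 genes.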

How the data were processed

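RPFs were sequenced from 8 libraries, 4 of each line. Per the labels and methods, the authors removed PCR duplicates with UMI-tools, discarded non-coding RNA with Bowtie2 2.4.2, aligned uniquely to hg38 with STAR 2.7.10a and deposited raw counts per gene, without normalization, in a table for each line. The annotation release and the strand setting are not given in the sources used here. Of 60664 identifiers, 60463 matched GENCODE 44, which gave names, positions, coding lengths and coding sequences. All 8 columns of samples were used.

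Each line's pulldown was tested against its input in edgeR 4.0.16 and R 4.3.3 (filterByExpr, TMM, glmQLFit, glmQLFTest, Benjamini-Hochberg adjusted p under 0.05 over all genes tested), and the interaction in 1 fit of all 8 libraries. Intervals are at 95%. Alternatives were DESeq2 1.42.0, a replicate block, library totals, cyclic loess with limma-trend (limma 3.58.1), other count filters, glmTreat against a 1.5-fold change, 1 fit of all libraries, removal of genes with over 10% of exon bases under an opposite-strand gene, and leaving out each library. All 10 members and the 67 listed genes passed the filters in each comparison. Named were the members, their paralogs and direct partners, and up to 5 called listed genes in each direction. The members and lists were chosen with earlier results of these data known, so their counts are not independent evidence. Of the cell type markers, 1 is not reported here. Fits were tested on simulated counts in which 200 genes were changed by a known fold. At 1.2-fold the TRiC fit recovered 6 of these, the PFD fit 0 and the interaction 0. At 1.5-fold they recovered 195, 5 and 0, and at 2-fold 200, 93 and 55. Small changes could therefore go uncalled in TRiC, and larger ones in PFD and the interaction. The methods call the replicates biological and do not say how they were grown apart, so p-values measure the spread between these libraries. Taken over 8085 genes with at least 100 counts in every library, the spread between replicates exceeded counting error (chi-square per degree of freedom of 15.8 to 119 in the 4 groups). This need not hold for single genes, whose 2 replicates can lie close together or hold few counts.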

Additional observations from a re-analysis of the deposited data

How the results depend on the processing

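The sign of the 6 lower COPI subunits held in every alternative run for them (COPB2 was not in the fit without opposite-strand overlaps), but the number of calls did not. Members called lower in the TRiC pulldown (2) numbered 6 with a replicate block, 4 without opposite-strand overlaps, and 0 with library totals, cyclic loess, at least 100 counts, glmTreat or all 8 libraries, and 0 to 4 when a library was left out (0 without TRiC input replicate 1 or 2). Their median (−0.19) was −0.15, −0.065, −0.17, −0.13 and −0.23 with library totals, loess, at least 10 counts, at least 100 counts and without overlaps, and −0.23 to −0.15 without a library. Listed genes called lower (21) numbered 11 with totals, 10 with loess, 0 with glmTreat or all 8 libraries and 9 to 25 without a library, and those higher (3) numbered 5 with loess, 0 with glmTreat or all 8 libraries and 2 to 4 without a library. In PFD, members called higher (0) numbered 1 with DESeq2 and 0 to 3 without a library, listed genes higher (0) numbered 1 with the block, DESeq2 or no filter and 0 to 6 without a library, and those lower (0) 1 with DESeq2 and 0 to 7. Members lower in the interaction (0) numbered 4 with DESeq2, 1 without a filter and 0 to 3 without a library. Over all 17934 genes, TRiC calls went from 1550 higher and 1894 lower to 2037 and 2652 with the block. Without opposite-strand overlaps they were 1362 and 1654 of 15626 genes. They fell to 164 and 64 with glmTreat and 16 and 15 with all 8 libraries, and PFD calls went from 7 and 27 to 252 and 281 with DESeq2. A lone library left in an arm is assumed to vary like the others. The cause was not tested.

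The labels do not say whether same-numbered input and pulldown libraries share a culture, while the methods take both from ribosome pellets. Deviations of same-numbered libraries correlated at 0.240 in TRiC and −0.0973 in PFD. That cannot decide whether they are pairs, and the main fits used no pairing. Among the counts of members and listed genes, the block moved by over 1.5 times only those of members lower in TRiC (6) and of listed genes higher in PFD (1). Over all genes it called 2037 higher and 2652 lower in TRiC, and 44 higher and 90 lower in PFD.

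Single-gene values were followed through the alternatives for 25 named genes in TRiC (all but COPG2), 15 in PFD and 5 in the interaction. Signs turned for 6 of the 25 in TRiC, 6 of the 15 in PFD and 1 of the 5 in the interaction, none of them called. In TRiC, library totals gave COPB1 0.026, SEC23A 0.025, SEC24A 0.026 and SEC24D 0.031. Loess gave CLTC 0.14, COPB1 0.10, SEC23A 0.069, SEC24A 0.052, SEC24D 0.071 and SEC31A 0.026. At least 10 counts gave COPB1 0.0013, SEC24A 0.0015 and SEC24D 0.0051, and at least 100 gave CLTC 0.0072, COPB1 0.045, SEC23A 0.043, SEC24A 0.045 and SEC24D 0.048. Without a library, TRiC values ran from −0.12 to 0.077 for COPB1, −0.10 to 0.058 for SEC23A and −0.11 to 0.068 for SEC24A. PFD values ran from −0.063 to 0.17 for ARCN1, −0.027 to 0.15 for CLTA, −0.094 to 0.056 for CLTB, −0.12 to 0.028 for CLTC, −0.39 to 0.019 for COPZ1 and −0.035 to 0.25 for SEC31A. The interaction value of CLTC was 0.062 with totals, 0.26 with loess, 0.012 and 0.058 with at least 10 and 100 counts, and −0.11 to 0.13 without a library.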
